A study of Daucus carota with 10 samples.

Results

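The data on 5 carrot genes for late steps of anthocyanin synthesis are described here. They are *DFR1* (LOC108224780), 2 further dihydroflavonol reductase-like genes (LOC108224131 and LOC108224331), *LDOX1* (LOC108209615) and a further leucoanthocyanidin dioxygenase-like gene (LOC108198717). The genes were taken by their identifiers from the list of structural anthocyanin genes of the study, in which they stand between *F3′H1* and the UFGT-like genes, and they are 5 of the 36908 loci of the deposited tables. Their numeric gene identifiers are 108224780 (*DFR1*), 108224131, 108224331, 108209615 (*LDOX1*) and 108198717. All 5 were found in every table, and none was at 0 in any library. That list was drawn up by the study on these same libraries, so the levels of its members are not independent evidence of the direction of their change.

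Anthocyanins are the red to purple flavonoid pigments that colour black and purple carrots. Dihydroflavonol 4-reductase (DFR) reduces dihydroflavonols to colourless leucoanthocyanidins, and leucoanthocyanidin dioxygenase (LDOX, also called anthocyanidin synthase) oxidises these to the coloured anthocyanidins, which are then glycosylated and acylated. DFR belongs to a large family of short-chain reductases and LDOX to the 2-oxoglutarate-dependent dioxygenases, and both families hold members in plants that act on other substrates.

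RNA was sequenced from taproots of greenhouse-grown carrots harvested at 120 days, with 10 roots of a cultivar mixed and 2 libraries in each of 5 groups. Groups E and G were xylem, the inner core of the root, groups F and H were phloem, the outer part, and group CT was made from undissected slices of ‘H13.360IND’, an orange carrot. E and F came from one purple cultivar and G and H from another. The sample labels call E and F ‘Purple Haze’ (E orange, F purple) and G and H ‘Purple 68’ (both purple), whereas the design text of the series, and the study, give ‘Purple 68’ for E and F and ‘Purple Haze’, a purple root with an orange core, for G and H. The groups are therefore called by their letters, which both sources share, and colour comparisons are given under both readings. Xylem and phloem carry the same letters in both sources, but defining xylem and phloem genes could not be matched to identifiers, so the tissue labels were not checked against markers. The 2 libraries of a group are labelled biological replicates, but the mixing of roots is not described library by library, so p-values measure the spread between these libraries.

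Levels were read as FPKM, fragments per kilobase of exon scaled to the mapped total of the library, which allows levels of different genes to be set side by side. The totals worked back from the steps of the FPKM values were 13909841 to 17118787 fragments in a library (median 15754769), and 3 fragments, taken as the detection floor, correspond to between 0.12 and 0.17 FPKM for these genes. RNA was measured in bulk tissue, so fewer cells of a type and less RNA per cell cannot be told apart.

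The study measured *DFR1* by quantitative PCR with the following primer pair. It is printed because *DFR1* led the DFR-annotated genes in every E, F, G and H library. Whether the pair also matches the other DFR-like genes was not checked. Both are in lower case throughout, 5′ to 3′, as 23 and 24 bases.
DFR1 forward primer: gttatcaagcctaccgtacaggg
DFR1 reverse primer: catttctctcttatcaatttcacc

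The 5 genes lie on 4 different sequences of the carrot genome used in the deposited tables, whose build is not given in the sources used here. *DFR1* spans bases 22603295 to 22605159 on the minus strand, with an exon length of 1368 bases, and LOC108224331 spans 3072414 to 3074857 on the minus strand of the same sequence, 19528437 bases away. LOC108224131 spans 39255463 to 39257468 on the minus strand, and LOC108198717 spans 5198835 to 5202589 on the plus strand. *LDOX1* spans 28540520 to 28542029 on the plus strand, with an exon length of 1425 bases, and all 1510 bases of it lie inside LOC108209616, annotated on the opposite strand. The pathway tables of the study pair *DFR1* and LOC108224331 with the same Arabidopsis gene, AT5G42800, which encodes DFR, and *LDOX1* with AT4G22880, which encodes LDOX. They pair LOC108224131 with AT4G33360, known in Arabidopsis as a farnesol dehydrogenase gene rather than a DFR gene.

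*DFR1* was high in 3 groups and low in the rest. Its level was 935 and 566 FPKM in E, 584 and 1000 FPKM in F, 16.5 and 14.9 FPKM in G, 637 and 393 FPKM in H, and 1.84 and 2.31 FPKM in CT. The libraries of F, E and H overlapped in that order of means (792 ± 294, 751 ± 261 and 515 ± 173 FPKM, SD, n = 2 each). Those of G (15.7 ± 1.07 FPKM) lay below all of these and above both of CT (2.07 ± 0.330 FPKM, SD, n = 2 each). Each E, F or H library held between 8389 and 22570 fragments of it. The G libraries held 341 and 325 and the CT libraries 35 and 54, so the CT values rested on the fewest fragments.

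*LDOX1* was high in the same 3 groups, but in another order. It had 368 and 296 FPKM in E, 342 and 542 FPKM in F, 28.9 and 27.2 FPKM in G, 916 and 1220 FPKM in H, and 0.454 and 0.533 FPKM in CT. H (1068 ± 215 FPKM) lay above F (442 ± 141 FPKM) without overlap, F and E (332 ± 51.0 FPKM) overlapped, and G (28.0 ± 1.21 FPKM) lay above CT (0.493 ± 0.0558 FPKM, SD, n = 2 each). The highest library was 2688 times the lowest for *LDOX1* and 544 times the lowest for *DFR1*, the widest and second widest spans of the 5 genes. The CT libraries held 9 and 13 *LDOX1* fragments.

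LOC108209616, the gene annotated across *LDOX1* on the other strand, had 0.511 and 0.0965 FPKM in E, 0.304 and 0.186 FPKM in F, 3.14 and 4.20 FPKM in G, 1.47 and 0.738 FPKM in H, and 3.42 and 3.28 FPKM in CT. It was thus at or under 1.47 FPKM in the libraries with high *LDOX1* and above 3 FPKM in those of G and CT. The library kit is not stated to keep strand, so fragments of the pair cannot be told apart where they overlap.

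The other DFR-like genes did not reach 26 FPKM in any library. LOC108224131 had 0.610 and 0.585 FPKM in E, 17.9 and 7.99 FPKM in F, 3.69 and 0.0976 FPKM in G, 25.2 and 16.4 FPKM in H, and 22.1 and 23.2 FPKM in CT. Its second G library held 2 fragments, under the floor. CT, H and F overlapped as neighbours in the order of means, and G and E overlapped below them.

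LOC108224331 had 0.251 and 0.477 FPKM in E, 20.8 and 15.4 FPKM in F, 9.12 and 7.43 FPKM in G, 21.2 and 15.8 FPKM in H, and 21.4 and 14.6 FPKM in CT. H, F and CT overlapped (18.5 ± 3.81, 18.1 ± 3.79 and 18.0 ± 4.80 FPKM), G lay below them at 8.28 ± 1.19 FPKM, and E lay lowest at 0.364 ± 0.160 FPKM (SD, n = 2 each). The E libraries held 6 and 11 fragments of it. In CT both DFR-like genes thus stood close to their levels in phloem, unlike *DFR1*.

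LOC108198717, the LDOX-like gene, was highest in phloem. It had 1.57 and 0.839 FPKM in E, 15.2 and 36.7 FPKM in F, 1.56 and 0.148 FPKM in G, 9.87 and 12.2 FPKM in H, and 0.339 and 0.597 FPKM in CT. F lay above H and H above the rest without overlap, while E, G and CT overlapped as neighbours. Its second G library held 3 fragments, at the floor.

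**Figure D1:**
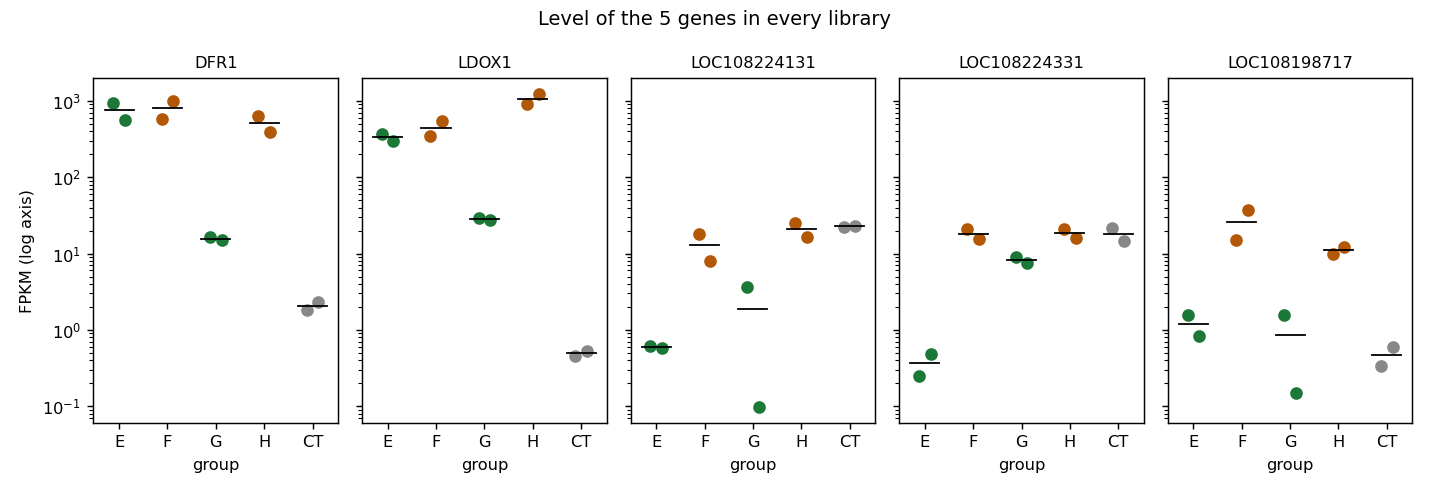
Level of each of the 5 genes in FPKM (log axis) in the 10 libraries, with a point for each library and a line at the mean of the 2 libraries of a group; green points are xylem, brown points phloem and grey points the whole slice. *DFR1* and *LDOX1* lie at 296 FPKM or above in E, F and H and below 30 FPKM in G and CT, and the other 3 genes lie at 36.7 FPKM or below everywhere.

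The make-up of the DFR-annotated signal differed between groups. Here LOC108224131 is counted by its name in the study's list, although its Arabidopsis match is not a DFR gene. *DFR1* made up 99.9% and 99.8% of the summed FPKM of the 3 DFR-annotated genes in E, 93.8% and 97.7% in F, 56.2% and 66.5% in G, 93.2% and 92.4% in H, and 4.06% and 5.75% in CT. In the orange whole slice nearly all of the DFR-annotated signal therefore came from LOC108224131 and LOC108224331. With LOC108224131 left out, the share of *DFR1* was at least 96.1% in every E, F and H library, 64.3% and 66.8% in G, and 7.93% and 13.7% in CT. *LDOX1* made up 99.6% and 99.7% of the summed FPKM of the LDOX pair in E, 95.8% and 93.7% in F, 94.9% and 99.5% in G, 98.9% and 99.0% in H, and 57.2% and 47.2% in CT, where the sum itself was only 0.793 and 1.13 FPKM.

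**Figure D2:**
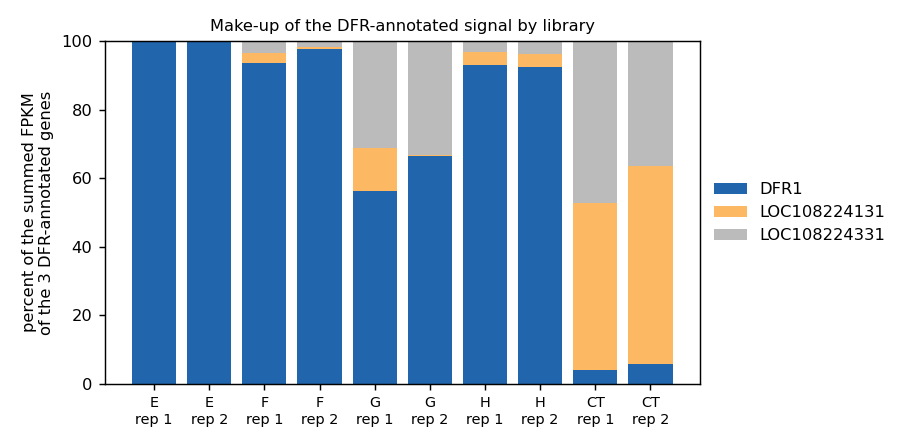
Share of each of the 3 DFR-annotated genes in their summed FPKM (percent, axis from 0 to 100), with a stacked bar for each library. *DFR1* takes over 92% in every E, F and H library, 56.2% and 66.5% in G, and 4.06% and 5.75% in CT.

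Xylem was compared with phloem inside each purple cultivar. In these and the later comparisons a gene was called when limma on log2(FPKM + 1) gave a Benjamini-Hochberg adjusted p below 0.05 over all loci tested and the log2 fold change reached 1 in either direction. Fold changes on this scale understate those of genes near 1 FPKM. A gene with a mean under 1 FPKM in 1 of 2 groups passed the expression filter only if it was higher in the other. This held for LOC108224331 and LOC108224131 in E, *LDOX1* and LOC108198717 in CT, and LOC108198717 in G. The direction of such calls between 2 groups was therefore fixed by the filter. Between E xylem and F phloem, LOC108224331 was the 1 gene of the 5 that was called, against 0.372% of all loci tested. It was lower in E, at a log2 fold change of -3.80 (SE 0.44, adjusted p = 0.0497), and each of the 4 fits that left out a library lost this call, with 0 to 17 of all loci called in those fits (68 with all libraries). LOC108198717 (log2 fold change -3.51, SE 0.55, adjusted p = 0.0768) and LOC108224131 (-3.03, SE 0.53, adjusted p = 0.0897) were at lower levels in both E libraries than in either F library but did not pass. *DFR1* had a log2 fold change of -0.07, with a 95% interval of -1.09 to 0.95, and *LDOX1* one of -0.38, with an interval of -1.19 to 0.42, and their E and F libraries overlapped. The median log2 fold change was -3.03 over the 5 genes and -0.03 over all loci tested.

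Between G xylem and H phloem the order was turned round: the strongly expressed pair differed most. *LDOX1* (log2 fold change -5.19, SE 0.24, limma adjusted p = 0.0040) and *DFR1* (-4.91, SE 0.30, adjusted p = 0.0049) fell in G relative to H, 2 of the 5 genes against 1.71% of all loci, and both calls held in each fit that left out a library. LOC108224131 had a log2 fold change of -3.24 (SE 0.77, adjusted p = 0.116), which was -4.28 without G replicate 1 and -2.19 without G replicate 2. LOC108198717 had one of -2.80 (SE 0.56, adjusted p = 0.0832) and LOC108224331 one of -1.07 (SE 0.36, adjusted p = 0.231). All 5 genes were lower in both G libraries than in either H library, with a median log2 fold change of -3.24, against 0.22 over all loci tested.

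Between the xylems, E and G, the strong genes and a weak one moved in opposite directions. *DFR1* rose in E relative to G by 5.45 on the log2 scale (SE 0.30, limma adjusted p = 0.0062) and *LDOX1* by 3.51 (SE 0.23, adjusted p = 0.0073). LOC108224331 was lower in E, at -2.76 (SE 0.40, adjusted p = 0.029). These were 3 of 5 genes called, against 6.94% of all loci tested. With no filter LOC108224331 was not called (limma adjusted p = 0.0698). Without E replicate 1, LOC108224331 lost its call and 1.99% of all loci were called. The fits that left out E replicate 2, G replicate 1 or G replicate 2 called 0 of all loci, these genes included, while *DFR1* stayed between 5.38 and 5.81 and *LDOX1* between 3.47 and 3.67. LOC108224131 (-0.51, SE 0.73) and LOC108198717 (0.34, SE 0.51) did not pass, and G replicate 2 held 2 and 3 fragments of them. The median over the 5 genes was 0.34, the value of LOC108198717 itself, and ranged from -0.23 without G replicate 2 to 2.24 (4 genes tested) without G replicate 1, against -0.19 over all loci.

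Between the phloems, F and H, limma called 0 of the 5 genes, against 1.41% of all loci tested; 1 of the 5, *LDOX1*, had an unadjusted p below 0.05, as had 16.0% of all loci. Voom on the recovered fragments called 0 of all 18671 loci, so its 0 of the 5 says nothing of these genes. *LDOX1* was called in 1 fit of all 10 libraries (adjusted p = 0.026, with 6.74% of all loci called). *LDOX1* had a log2 fold change of -1.29 in F over H (95% interval -2.16 to -0.43, adjusted p = 0.146), and the F libraries lay below both H libraries. *DFR1* had 0.61 (interval -0.36 to 1.58) and LOC108198717 had 1.05 (SE 0.48). LOC108224131 had -0.71 (interval -1.85 to 0.43) and LOC108224331 had -0.03 (interval -0.91 to 0.84). The 95% intervals leave room for differences of more than 1 on the log2 scale in 4 of the 5 genes, LOC108224331 being the exception.

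**Figure D3:**
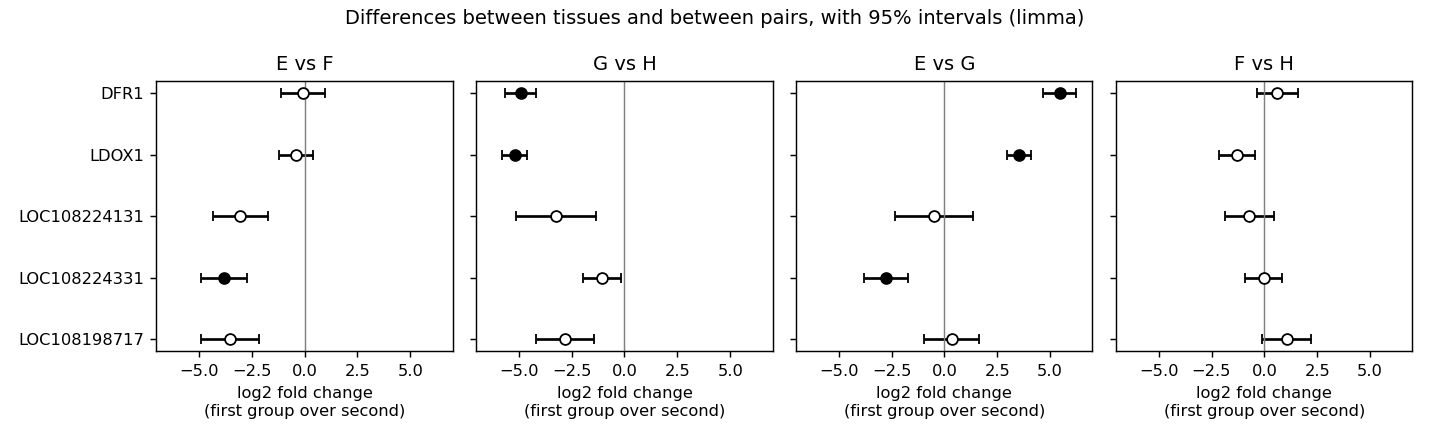
log2 fold change of the 5 genes (first group over second, on the log2(FPKM + 1) scale) with 95% limma intervals, for E over F, G over H, E over G and F over H; filled points passed the thresholds. *DFR1* and *LDOX1* lie near 0 in E over F and at -4.91 and -5.19 in G over H, and LOC108224331 lies at -3.80 in E over F.

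Whether the xylem to phloem difference differed between the cultivars was tested as an interaction over the 8 libraries, (E minus F) minus (G minus H), called on the adjusted p alone. It passed for *DFR1*, at 4.84 (SE 0.54, limma adjusted p = 0.0165), and for *LDOX1*, at 4.80 (SE 0.40, adjusted p = 0.0078). These were 2 of the 5 genes, against 1.45% of all loci tested. Leaving out F replicate 1, G replicate 1 or G replicate 2 ended both calls, but those fits called 1, 0 and 0 of all loci, against 291 with all libraries. Leaving out H replicate 1 left the call of *LDOX1*, with 23 of all loci called. Over the fits without a library the value of *DFR1* lay between 4.45 and 5.23 (adjusted p up to 0.102) and that of *LDOX1* between 4.47 and 5.13 (adjusted p up to 0.0879). LOC108224331 had an interaction of the opposite sign, at -2.73 (SE 0.49), which missed the threshold with an adjusted p of 0.0524. The interaction was 0.20 (interval -2.17 to 2.58) for LOC108224131 and -0.70 (SE 0.80) for LOC108198717.

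With both cultivars in 1 additive fit, xylem minus phloem passed for the weak genes and not for the strong ones. LOC108198717 was lower in xylem, by a log2 difference of -3.16 (SE 0.40, limma adjusted p = 0.0053), as was LOC108224131, by -3.13 (SE 0.48, adjusted p = 0.0111). Both passed in each of the 8 fits without a library. LOC108224331 also passed, at -2.43 (SE 0.52, adjusted p = 0.0432), in the fit of all 8 libraries but in only 2 of the 8 fits without a library. Of the 6 other alternatives it passed only under quantile normalization and with no fold minimum. The latter is the same fit with a looser threshold and cannot lose a call. *DFR1* (-2.49, SE 0.85, adjusted p = 0.192) and *LDOX1* (-2.79, SE 0.83, adjusted p = 0.132) had differences of like size with wider errors. The additive fit has no interaction term, so their unlike tissue differences in the 2 cultivars enter these errors. The errors are therefore not the spread between libraries alone, and the lack of a call does not mean the lack of a difference. Called were 3 of the 5 genes, against 2.99% of all loci tested, with a median of -2.79 over the 5 and 0.09 over all loci.

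**Figure D4:**
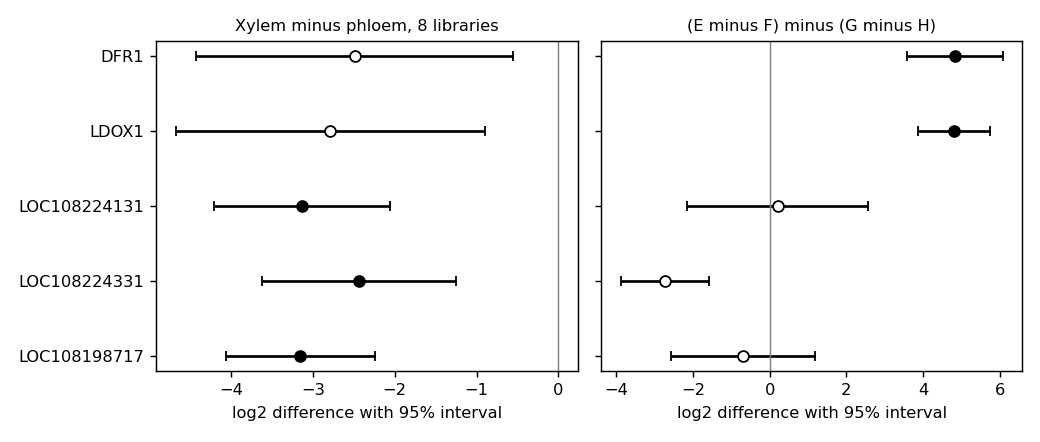
log2 difference with 95% limma interval for xylem minus phloem over the 8 libraries of E, F, G and H (left) and for the interaction, (E minus F) minus (G minus H) (right); filled points passed the thresholds. The weak genes passed on the left, at -3.16, -3.13 and -2.43, and *DFR1* and *LDOX1* passed on the right, at 4.84 and 4.80.

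Each purple-cultivar group was also set against the orange whole slice, which is a mixture of xylem and phloem and of another cultivar, so tissue and cultivar cannot be told apart. The 4 comparisons share the CT libraries. The median of all loci was below 0 in each, between -0.49 and -0.23, and lay between -0.11 and -0.07 after quantile normalization, so the values below are to be read relative to that shift. Of all calls, 23.3% to 40.2% were higher than CT as deposited, against 46.1% to 56.3% after quantile normalization.

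*DFR1* and *LDOX1* were higher than in CT in all 4 groups. *LDOX1* was under 1 FPKM in CT, so the filter allowed only a rise to be called. Both genes kept their calls in all 4 groups with no filter. In E the log2 fold change was 7.89 for *DFR1* (SE 0.32, limma adjusted p = 0.0034) and 7.79 for *LDOX1* (SE 0.26, adjusted p = 0.0026). In F it was 7.96 for *DFR1* (SE 0.30, adjusted p = 0.0020) and 8.18 for *LDOX1* (SE 0.27, adjusted p = 0.0015). G, the group with low levels among the purple cultivars, still had 2.44 for *DFR1* (SE 0.25, adjusted p = 0.0124) and 4.28 for *LDOX1* (SE 0.25, adjusted p = 0.0095). In H it was 7.35 for *DFR1* (SE 0.32, adjusted p = 0.0020) and 9.47 for *LDOX1* (SE 0.26, adjusted p = 0.00063).

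The weak genes divided against CT. LOC108198717 rose in F (4.08, SE 0.45, limma adjusted p = 0.0084) and in H (3.03, SE 0.39, adjusted p = 0.0222), had a log2 fold change of 0.57 in E (adjusted p = 0.228), and was below the expression filter in G and CT. Its mean in CT was under 1 FPKM, so only a rise could be called. With no filter it kept its calls in F (limma adjusted p = 0.0168) and H (0.0441). LOC108224131 fell in E (-3.89, SE 0.33, limma adjusted p = 0.0127) and in G (-3.38, SE 0.68, adjusted p = 0.036), with -0.86 in F and -0.15 in H. Its call in G held in 4 of 7 alternatives that kept all libraries, among them no fold minimum, which cannot lose a call. LOC108224331 fell in E (-3.78, SE 0.38, adjusted p = 0.015), with -1.01 in G (adjusted p = 0.0587), 0.02 in F and 0.05 in H. The values of LOC108224331 in F and of both DFR-like genes in H changed sign under some alternatives and lay within their intervals of 0. Called were 4 of 5 genes in E (15.2% of all loci), 3 of 5 in F (29.4%), 3 of the 4 tested in G (13.3%) and 3 of 5 in H (10.2%). Fits that left out a CT library called 0 of all loci in E, F and G, these genes included. In H they called 9 of all loci without CT replicate 1, *LDOX1* among them, and 0 without CT replicate 2. In G, leaving out either G library also gave 0 of all loci. The fold changes moved little: that of *DFR1* in E was 7.78 without CT replicate 1 and 8.00 without CT replicate 2. For LOC108224131 in G, leaving out a G library moved the value to -4.43 without replicate 1 and -2.34 without replicate 2.

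Purple was compared with orange under both readings of the colours. The errors of these fits come from the spread between the 2 libraries of a group. Their p-values therefore do not measure the spread between tissues or cultivars of the same colour. CT is a whole slice of another cultivar, so colour cannot be told apart from tissue and cultivar. With E, F and H as purple and G and CT as orange, as in the design text and the study, *DFR1* was higher in purple by 6.51 on the log2 scale (SE 0.23, limma adjusted p = 2.4e-06) and *LDOX1* by 6.34 (SE 0.17, adjusted p = 3.7e-07). LOC108198717 was higher by 2.45 (SE 0.34, adjusted p = 0.0021), but its colours overlapped. E, purple here, had 1.57 and 0.839 FPKM of it, and G, orange here, had 1.56 and 0.148 FPKM. Only the phloem groups, F and H, lay above both orange groups. Called were 3 of the 5 genes, against 13.2% of all loci tested. The lowest purple values were 393 FPKM of *DFR1* and 296 FPKM of *LDOX1*, and the highest orange ones were 16.5 and 28.9 FPKM. LOC108224331 had -0.73 (adjusted p = 0.0382), under the fold minimum, and LOC108224131 had 0.06 (adjusted p = 0.92).

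With F, G and H as purple and E and CT as orange, as the colours stand in the sample labels, the differences were 1.97 for *DFR1* (SE 0.23, limma adjusted p = 0.0036) and 3.41 for *LDOX1* (SE 0.17, adjusted p = 0.00016). LOC108198717 (2.16, SE 0.34, adjusted p = 0.0098) and LOC108224331 (1.58, SE 0.21, adjusted p = 0.0061) were also called, 4 of the 5 genes against 5.98% of all loci. Under this reading the colours overlapped in both strong genes: E, labelled orange, had 935 and 566 FPKM of *DFR1*, and G, labelled purple, had 16.5 and 14.9 FPKM. CT, the other group labelled orange, had 1.84 and 2.31 FPKM of *DFR1*. The colours overlapped in LOC108224331 and LOC108198717 as well. For LOC108224331, CT had a mean of 18.0 FPKM, near F (18.1 FPKM) and H (18.5 FPKM) and above G (8.28 FPKM). Its mean in E was 0.364 FPKM. For LOC108198717, G had 1.56 and 0.148 FPKM and E had 1.57 and 0.839 FPKM.

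The balance between *LDOX1* and *DFR1* was read inside each library, where a common scaling error falls out. The ratio of *LDOX1* to *DFR1* FPKM was 0.394 and 0.522 in E, 0.587 and 0.542 in F, 1.76 and 1.82 in G, 1.44 and 3.11 in H, and 0.247 and 0.231 in CT. The cultivar of E and F thus had less *LDOX1* than *DFR1* transcript in all 4 libraries, and the cultivar of G and H more in all 4. On the log2(FPKM + 1) scale the ratio was -0.98 ± 0.25 in E and F and 0.94 ± 0.48 in G and H (SD, n = 4 libraries each), a difference of -1.92 with a two-sided exact permutation p of 0.0286. This is the smallest p that 4 against 4 libraries allow, and it was 0.171 after Benjamini-Hochberg adjustment over the 6 ratio tests made. Each of these tests shuffled all libraries as independent, although the 4 on each side were 2 groups of 2 libraries. Xylem and phloem of a cultivar were dissected from discs of its roots and may share roots. The p-values of the ratio tests therefore do not measure the spread between roots of a cultivar. Between xylem (E and G) and phloem (F and H) the same ratio differed by -0.30 (exact p = 0.686).

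The ratios of the strong genes to their weak relatives varied more. *DFR1* over LOC108224331 was 7.20 ± 2.24 in E and F and 2.77 ± 2.22 in G and H on the log2 scale (SD, n = 4 each), a difference of 4.43 (exact permutation p = 0.0571, adjusted p = 0.171), and it differed by -0.06 between xylem and phloem (exact p = 0.914). *LDOX1* over LOC108198717 differed by 0.41 between the cultivars (exact p = 0.629) and by 0.37 between the tissues (exact p = 0.686). The tissue differences of these ratios were not stable: with a pseudocount of 0.1 they were 0.70 and 1.37. Leaving out a library moved them between -1.59 and 1.33 and between -0.19 and 1.08. The means over 4 libraries hide the pattern across groups: *DFR1* over LOC108224331 was highest in both E libraries, alike in F and H, and lowest in CT.

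**Figure D5:**
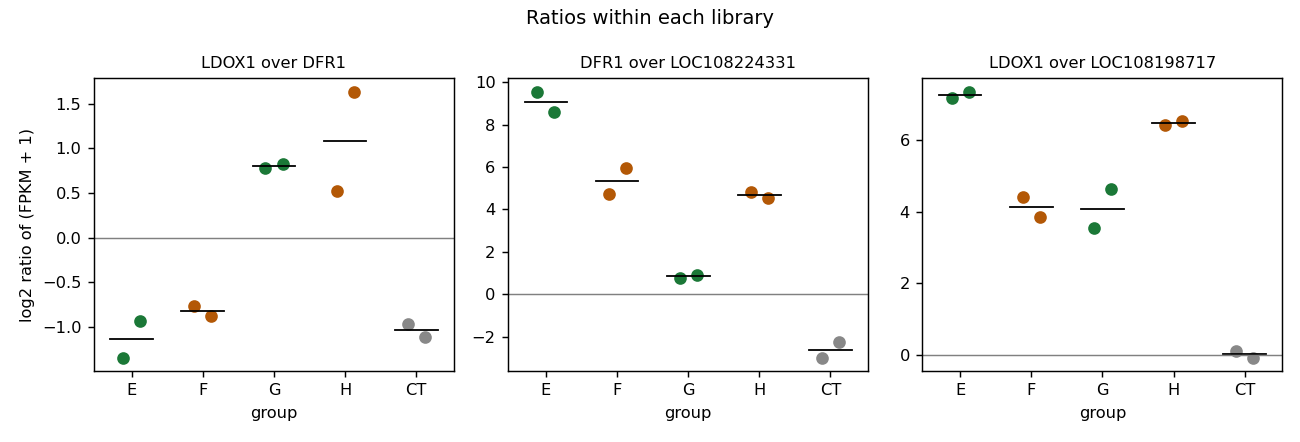
log2 ratio of (FPKM + 1) in each library for *LDOX1* over *DFR1*, *DFR1* over LOC108224331 and *LDOX1* over LOC108198717, with a point for each library (green xylem, brown phloem, grey whole slice) and a line at the mean of the group. *LDOX1* over *DFR1* lies between -1.34 and -0.77 in E and F and between 0.52 and 1.63 in G and H.

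The other structural genes of the study's list, from phenylalanine ammonia-lyase at the entry to the UFGT-like glycosyltransferases, number 16. They come from the same list, drawn up on these libraries, so their levels are not independent evidence of direction either. Of these, 0 were higher and 1 was lower in E than in F (15 tested, against 0.372% of all loci called). In G against H, 0 were higher and 7 lower in G (14 tested, against 1.71% of all loci called). Between the xylems 8 were higher and 1 lower in E than in G (12 tested, against 6.94% of all loci called). Between the phloems limma called 0 of the 16, against 1.41% of all loci. There 8 of the 16 had an unadjusted p below 0.05, against 16.0% of all loci, and voom called 0 of all loci. The interaction passed for 5 of 16, all positive, against 1.45% of all loci. These were the chalcone synthase gene *CHS1*, the chalcone isomerase genes *CHI1* and *CHI2*, *F3H1* and *F3′H1*, which act before DFR. The gene lower in E than in F was LOC108197342, a flavonol synthase-like gene on the branch that competes with DFR for its substrate, whose mean was 0.619 ± 0.204 FPKM for E, against 70.6 ± 29.9 FPKM for F (SD, n = 2 each).

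The genes whose levels ran most like those of each of the 5 were taken from 20313 annotated genes by Pearson's r of log2(FPKM + 1) over the 10 libraries. For *DFR1* they were *CHI1* (r = 0.997), LOC108205905 (0.994) and LOC108210826 (0.993), and for *LDOX1* they were *CHI2* (0.989), LOC108214129, which the study names *SCPL1*, an acyltransferase gene (0.985), and LOC108220056 (0.984). Both isomerase genes belong to the early part of the pathway. Pearson's r does not reflect the size of a change: LOC108220056 ran only from 24.1 to 37.4 FPKM, against 0.454 to 1220 FPKM for *LDOX1*. The libraries fall into a high and a low set for these genes and pairs of them share a group, so r describes that split as much as any finer likeness. Genes with r above 0.9 numbered 87 for *DFR1* and 59 for *LDOX1*, so the named ones do not stand alone.

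The weak genes had other companions. For LOC108224131 the nearest were LOC108205854 (r = 0.970), LOC108216337 (0.966) and LOC108197500 (0.963), and for LOC108224331 they were LOC108224400 (0.981), LOC108193910 (0.977) and LOC108211659 (0.974). For LOC108198717 they were LOC108217929 (0.983), LOC108197822 (0.982) and LOC108196571 (0.976). LOC108216337, LOC108197500, LOC108193910 and LOC108211659 were weak throughout, at 3.42 FPKM or below, while the others reached 7.05 to 25.8 FPKM. LOC108224400 ran only from 9.90 to 21.2 FPKM, against 0.251 to 21.4 FPKM for LOC108224331. Genes with r above 0.9 numbered 41 for LOC108224131, 67 for LOC108224331 and 107 for LOC108198717, so the nearest do not stand alone. Among the 5 genes, r was 0.957 between *DFR1* and *LDOX1* and 0.820 between the DFR-like genes LOC108224131 and LOC108224331, but -0.15 and -0.31 between *DFR1* and that pair, over the same 10 libraries.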

How the data were processed

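Carrot taproot RNA (10 libraries, 2 in each of 5 groups) was sequenced as paired ends. Per the submitters' processing notes and the study's methods, the authors aligned clean reads with TopHat2 2.0.12 on a Bowtie2 2.2.3 index, with HTSeq 0.6.1 also listed, and used DESeq 1.18.0 for their own comparisons, none of which was used here. The genome build is not given in the sources used here. The deposited values are FPKM, computed by the authors per gene, with 36089 annotated and 819 unannotated loci. FPKM already divides by library total and exon length, and near-identical copies or overlapping genes could share fragments.

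Fragments were recovered from the FPKM steps: with a tolerance of 0.02, 75.4% of 30180 detected loci gave whole numbers at the listed length, another length was searched for 7421, and none was left unresolved. They served depths, the floor of 3 fragments and 1 alternative test (voom).

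Tests used limma 3.58.1 (trend, R 4.3.3) on log2(FPKM + 1), over loci whose mean reached 1 FPKM in some group of the fit, fitting the groups compared; all loci were adjusted together (Benjamini-Hochberg). Ratios were tested by exact permutation over libraries, written in Python 3.11.15 with numpy 2.4.6 and pandas 2.3.3. Figures were drawn with matplotlib 3.10.9, and SciPy 1.17.1 served only correlations that are not reported here. The code was checked on simulated data. Intervals cover the spread between libraries, and fragment counts are not independent molecules. In the additive fit of xylem minus phloem, errors and intervals also take in any difference between the cultivars in the tissue effect.

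The 5 genes and the gene lists were chosen with earlier results of these data known. Named were the 5 genes, any other structural gene needed to read a count, and the 3 annotated genes most correlated with each of the 5. The list of other structural genes was planned as 15 and holds 16, because the study's list includes the flavonol synthase-like gene. Lists of xylem and phloem markers and of further DFR and LDOX family members were planned by product name, and were void because the tables used here give no product names. Alternatives were another pseudocount (0.1), no filter, no fold minimum, quantile normalization, voom, 1 fit of all 10 libraries, a block on the replicate number and leaving out each library.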

Additional observations from a re-analysis of the deposited data

Results flagged for a closer look

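Both strongly expressed genes had a xylem to phloem difference that was not the same in the 2 purple cultivars, by a test of the difference itself. For *DFR1* the difference of differences, (E minus F) minus (G minus H), was 4.84 on the log2 scale (limma adjusted p = 0.0165): E minus F was -0.07 and G minus H was -4.91. For *LDOX1* it was 4.80 (limma adjusted p = 0.0078), with E minus F at -0.38 and G minus H at -5.19. In both genes the G libraries, with 16.5 and 14.9 FPKM of *DFR1* and 28.9 and 27.2 FPKM of *LDOX1*, stood apart from the other 6 libraries of the purple cultivars.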

How the results depend on the processing

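No result changed direction where it was called. *DFR1* and *LDOX1* kept their calls between G and H, between E and G, against CT, in the interaction and in both colour comparisons under every alternative that kept all libraries. The alternative with no fold minimum is the same fit with a looser threshold, so no call could be lost there. Between E and F, where 1 of the 5 genes was called (0.372% of all loci), the count was 0 with no filter (0.0472% of all loci). Voom called 0 of the 5 there, but also 0 of all loci, so it says nothing of these genes. With 1 fit of all 10 libraries the count was 3 for E against F (4.81% of all loci). In that fit it was 4 for G against H (7.76%, as reported count 2) and 1 for F against H (6.74%, as reported count 0). Leaving out each library gave 0 to 0 of the 5 called for E against F (0 to 17 of all loci), 2 to 2 for G against H (83 to 237), 0 to 2 for E against G (0 to 370) and 0 to 0 for F against H (0 in each fit). Against CT these counts ran 0 to 4 for E (0 to 8074 of all loci), 0 to 4 for F (0 to 5732), 0 to 0 for G (0 in each fit) and 0 to 3 for H (0 to 8611), so the losses went with a loss of calls over all loci. They were 0 to 2 for the interaction (0 to 64 of all loci), 2 to 3 for xylem minus phloem, 3 to 3 for E, F and H against G and CT, and 3 to 4 for F, G and H against E and CT. Such fits leave a group with 1 library, assumed to vary like the other. Over all loci, calls ranged over the alternatives from 0 to 879 for E against F (as reported 68), 29 to 3095 for G against H (as reported 321), 122 to 3272 for E against G (as reported 1313) and 0 to 1259 for F against H (as reported 263). Higher calls in E against G were 23.3% of all calls, and 36.4% after quantile normalization. The causes were not tested.

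The labels number the replicates, but differences between replicates 1 and 2 correlated at -0.30 between E and F, -0.57 between G and H, -0.43 between E and G and -0.11 between F and H. These values cannot decide whether the numbers pair the libraries, because E and G, of different cultivars, also gave a clearly negative value. Replicate 2 of E and of H had 15219 and 15434 loci at 1 FPKM or more, against 16909 to 18450 in the other libraries. The cause of this was not tested. With a replicate block, 3 of the 5 genes were called for E against F, with 3.18% of all loci (as reported 0.372%). With the numbers crossed, an alternative chosen after seeing the data, the block gave 3 for E against F (3.09% of all loci), 5 for G against H (16.5%, as reported 1.71%) and 1, *LDOX1* (limma adjusted p = 0.0437), for F against H (6.65%, as reported 1.41%). Permuting inside replicate numbers gave an exact permutation p of 0.0556 for *LDOX1* over *DFR1* between the cultivars.

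The low values set the limit of depth: 2 to 13 fragments lay behind the libraries of LOC108224131 and LOC108224331 in E, of LOC108224131 and LOC108198717 in the second G library and of *LDOX1* and LOC108198717 in CT, so differences there are counted on few fragments.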
